A study of Homo sapiens with 12 samples.

Results

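The immunoglobulin constant region genes encode the part of an antibody chain that sets its class. The 10 described here are the rows of the raw count tables whose Ensembl identifier carries the GENCODE symbol IGHM, IGHD, IGHG1, IGHG2, IGHG3, IGHG4, IGHA1, IGKC, IGLC2 or IGLC3. These 10 genes are a small part of the 60675 identifiers counted, and each of the 12 tables has a row for all 10, some of them at 0. The libraries came from SUDHL6 and SUDHL16, human cell lines of diffuse large B-cell lymphoma (DLBCL), a cancer of mature B cells. For each line there were 3 libraries of parental cells, which had not been selected with the drug, and 3 of venetoclax-resistant cells. Venetoclax (ABT-199) blocks the anti-apoptotic protein BCL2, and each resistant line was obtained by long culture in rising concentrations of it, until the cells grew at no less than 10 times the original IC50. No other treatment or genetic change was given for either status. Library kit and sequencer differed between the lines (NEBNext Ultra II and a HiSeq for SUDHL6, a stranded total RNA kit with ribosomal RNA depletion and a NovaSeq for SUDHL16), so neither can be told apart from the line.

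An antibody pairs a heavy chain with a light chain, and each chain joins a variable region, built once in a B cell by recombination, to a constant region. A B cell starts with the constant regions of IgM and IgD, which are spliced from the same primary transcript, and can switch by deleting the DNA in between to a downstream gene of the IgG, IgA or IgE class. The light chain uses either the single kappa constant gene or a lambda constant gene. The same heavy chain transcript is processed to a membrane form, which is the B-cell receptor, or to a secreted form, and a row of counts per gene holds both together.

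The total count ranged from 33992784 to 40885665 in the SUDHL6 libraries and from 4131927 to 22068221 in those of SUDHL16. The SUDHL16 libraries CE-26 and CE-30 stood apart. The parental library CE-26 had the lowest total, with 31.9% of its counts on identifiers outside GENCODE against at most 5.06% in the other SUDHL16 libraries, and 55.4% on protein coding genes. It also held markers of other cell types, with a summed level of 21.9 CPM for 3 NK cell, 10.6 CPM for 4 monocyte and macrophage and 13.7 CPM for 4 fibroblast and epithelial markers, against at most 1.23 CPM for any of these in the other SUDHL16 libraries. Each of these markers had at most 46 counts in CE-26. Counts lay on 34938 identifiers in CE-26, against 20896 to 24655 in the other SUDHL16 libraries. The part of the markers in the results was not tested. In the resistant library CE-30, 1796 counts lay on the kappa variable segment IGKV1-8, which had 0 in the other 5 SUDHL16 libraries, and the heavy joining segment IGHJ4 had 1 count, against 113 and 199 in the other resistant libraries. Results in SUDHL16 are therefore given with and without each of them. All 7 B-cell markers examined, MS4A1 and PAX5 among them, were detected in both lines, with a summed level of at least 2825 CPM (counts scaled to the library total, with the TMM factor that adjusts for composition) in every library. The summed level of 5 T-cell markers was 18.3 to 28.4 CPM in parental and 23.1 to 28.3 CPM in resistant SUDHL16. In SUDHL6 it was at most 3.82 CPM. In resistant SUDHL16, CD3D and CD2 were at 0 and CD3E was called higher. The means of TRAC, from 17.5 to 13.5 CPM, and of CD3G, from 2.28 to 0.364 CPM, were lower without a call. The labels do not state whether the 3 libraries of a group came from separate cultures, so p-values measure the spread between these libraries, which may be technical.

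In GRCh38 the 7 heavy chain members lie on the minus strand of chromosome 14, between the IGHG4 gene (chr14:105620506-105626066) and the IGHM gene (chr14:105851705-105856218). IGKC is a single exon at chr2:88857161-88857683, and IGLC2 (chr22:22900976-22901437) and IGLC3 (chr22:22906342-22906803) are single exons of the lambda locus. The 4 gamma genes are close copies that differ in their hinges, the flexible stretch between the arms and the stem of the antibody, and at other places. The hinge exon, exon 2, is shown as a stretch in which the 4 genes differ in sequence and length. It is read from the genome 5′ to 3′ on the minus strand, and the capitals mark the longest stretch of 7 bases that all 4 share:
IGHG1, chr14:105742341-105742385: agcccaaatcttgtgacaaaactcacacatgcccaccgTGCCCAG
IGHG2, chr14:105644068-105644103: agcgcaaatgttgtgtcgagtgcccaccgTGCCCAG
IGHG3, first of its hinge exons, chr14:105770669-105770719: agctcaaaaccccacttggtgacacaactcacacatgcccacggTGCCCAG
IGHG4, chr14:105625344-105625379: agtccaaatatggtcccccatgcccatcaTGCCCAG

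The genes share much of their sequence. Of all 50-base windows of the longest GENCODE transcript, 55.1% in IGHG1, 46.01% in IGHG2, 46.4% in IGHG3 and 43.5% in IGHG4 were found letter for letter in another gamma gene or in the gamma pseudogene IGHGP. In IGHA1 34.3% of the windows were found in IGHA2, the other IgA gene. The share was 66.1% in IGLC2 and 67.1% in IGLC3, whose coding parts of 317 bases differ at 3 positions, an identity of 99.1%. The 90 bases of these coding parts that hold most of the differences are shown, on the plus strand, with the differing bases in capitals:
IGLC2, chr22:22901133-22901222: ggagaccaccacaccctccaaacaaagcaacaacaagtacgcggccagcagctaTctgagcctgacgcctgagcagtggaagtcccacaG
IGLC3, chr22:22906499-22906588: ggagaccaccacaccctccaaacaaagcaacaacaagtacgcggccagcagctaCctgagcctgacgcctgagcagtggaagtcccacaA

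With 100-base windows the shares were lower, from 12.9% in IGHG4 to 30.1% in IGHG1 among the gamma genes, 8.42% in IGHA1 and 30.03% in IGLC2 and IGLC3. IGHM, IGHD and IGKC had 0 shared windows of either length. The read length and how the counting treated reads that match several genes are not given in the sources used here, so single values for the gamma genes, IGHA1, IGLC2 and IGLC3 are uncertain, and sums over copies are given for each set.

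The lines differed in the class they expressed. Per kilobase of exon, IGKC was the highest member in each group, at 2590 CPM per kilobase ± 11.5 (SD, n = 3) in parental SUDHL6 and 1684 ± 458 in parental SUDHL16. IGHM followed in SUDHL6, at 1668 ± 43.8 CPM per kilobase, and IGHG1 in SUDHL16, at 441 ± 129. In parental SUDHL6 the order continued with IGLC2, IGHG1, IGHD, IGHG2, IGLC3 and IGHA1, each separated from the next by ranges that did not overlap, whereas IGHG4 and IGHG3 at the end overlapped. In resistant SUDHL6 the last 3 members, IGHG4, IGHA1 and IGHG3, overlapped their neighbours, and the order was otherwise the same. In SUDHL16 the genes IGHG2, IGHG4 and IGHG3 came after IGHG1 with overlapping ranges in both groups, and IGLC2, IGHA1 and IGLC3 lay below 12 CPM per kilobase in every library. SUDHL6 thus had mostly mu and kappa counts, and SUDHL16 mostly gamma and kappa counts, in parental and resistant cells.

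**Figure D1:**
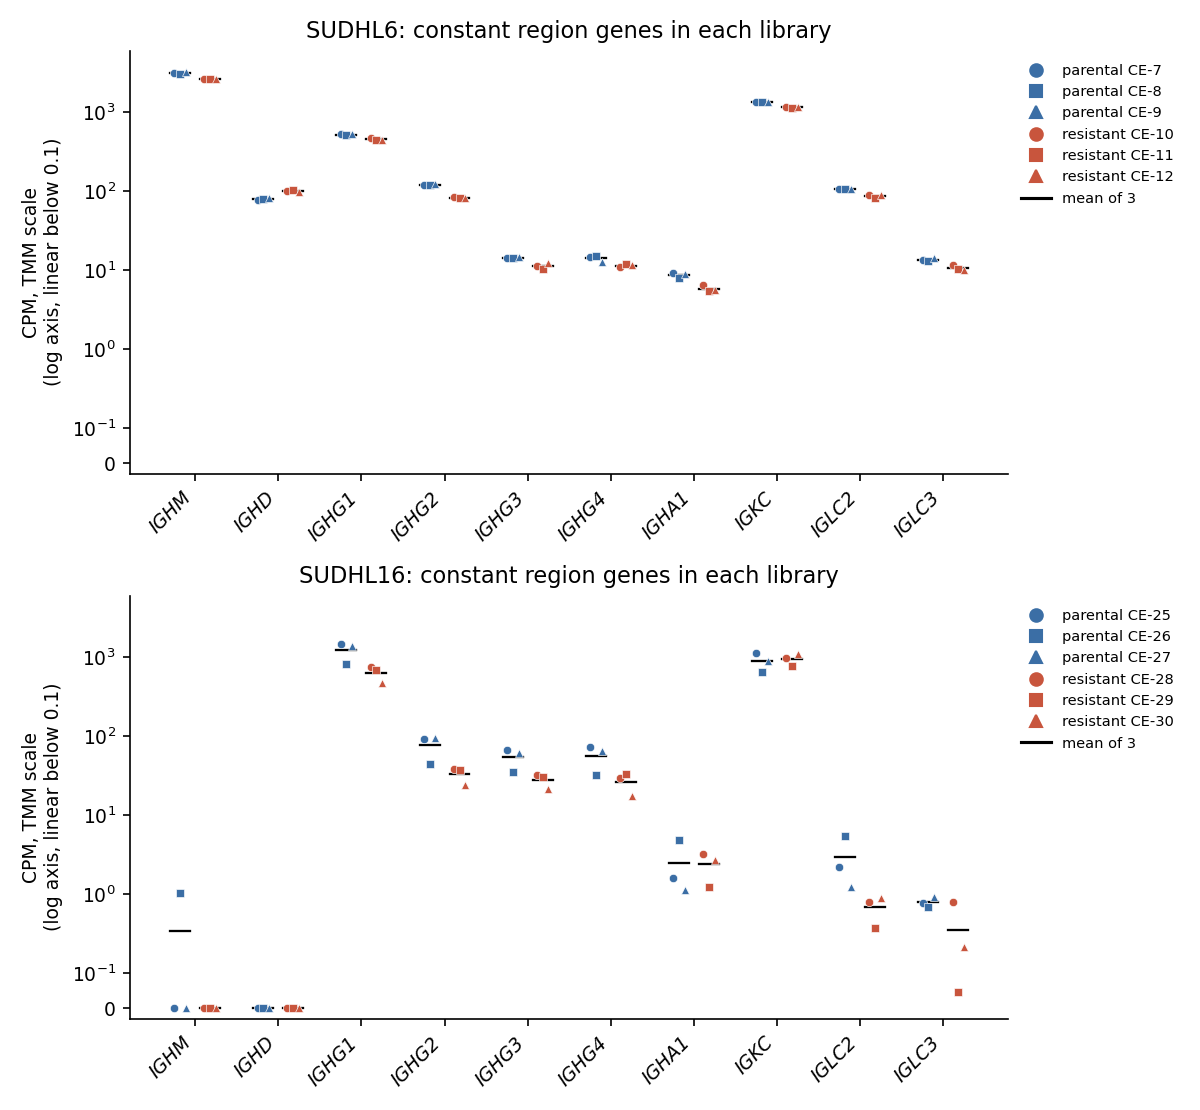
CPM of the 10 constant region genes in each of the 12 libraries, on a log axis that is linear below 0.1, with the mean of 3 libraries as a black bar. IGHM lay between 2602 and 3183 CPM in SUDHL6 and at 0 in 5 of 6 SUDHL16 libraries, and the SUDHL16 libraries spread more widely than those of SUDHL6.

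In SUDHL6 the first question was whether resistant cells differed from parental cells in any of the members. The 9 members other than IGHD were lower in resistant cells, and IGHD was higher. All 10 had an adjusted p under 0.05 in the quasi-likelihood test of edgeR, adjusted by Benjamini-Hochberg over all 16662 genes tested, and for all 10 the 3 resistant libraries lay outside the range of the 3 parental libraries. In the background, 37.3% of genes passed this threshold, 19.7% lower and 17.7% higher, and 47.9% of genes did not overlap between the groups. The changes were small. A gene was called when it also changed by at least 1.5-fold, which 0 of the 10 members did in edgeR and 0 in DESeq2. Of all genes tested, 8.96% were called in edgeR and 4.27% in DESeq2, where low counts were not filtered. The median log2 fold change was -0.31 over the members and 0.00 over all genes tested.

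IGHM, the constant region of the mu chain, had 3149.6, 3027 and 3183 CPM in the parental libraries CE-7, CE-8 and CE-9, and 2666, 2602 and 2625 CPM in the resistant libraries CE-10, CE-11 and CE-12. It fell by 0.25 on the log2 scale (SE 0.02, edgeR adjusted p = 2.25e-07). IGHD, the constant region of the delta chain, moved the other way. Its level was 78.0, 79.0 and 80.8 CPM in parental and 102, 102 and 98.5 CPM in resistant cells, a rise of 0.35 on the log2 scale (SE 0.03, edgeR adjusted p = 7.29e-07). The 2 genes share a primary transcript, and there were 38.3 to 40.4 IGHM counts for each IGHD count in parental cells and 25.4 to 26.6 in resistant cells.

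Among the gamma genes of SUDHL6, IGHG1 was the most abundant, with 522, 517 and 524 CPM in parental and 471, 448 and 451 CPM in resistant cells. Its log2 fold change was -0.19 (SE 0.02, edgeR adjusted p = 1.17e-05). IGHG2 had 118, 121 and 123 CPM in parental cells and 83.7, 81.3 and 83.0 CPM in resistant cells, and its log2 fold change of -0.55 (SE 0.03, edgeR adjusted p = 1.07e-08) was the largest of the gamma genes. IGHG3 went from 14.4 ± 0.230 to 11.3 ± 1.01 CPM and IGHG4 from 14.2 ± 1.37 to 11.4 ± 0.553 CPM (mean ± SD, n = 3 per group), with log2 fold changes of -0.36 and -0.31. For IGHG4 the edgeR adjusted p of 0.0111 became 0.0534 without CE-8 and 0.0503 without CE-10. With the 4 gamma genes summed, the level was 670 ± 3.55 CPM in parental cells against 562 ± 13.2 CPM, with a log2 fold change of -0.25. IGHG1 made up 77.5% to 78.0% of the 4 together in parental and 80.8% to 81.7% in resistant cells. The microRNA gene MIR8071-2 lies within IGHG2 on the opposite strand and had 93 to 136 counts in SUDHL6. Since the use of strand in counting is not given, its reads and those of IGHG2 cannot be told apart.

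IGHA1, a constant region of the alpha chain, was the member nearest to the 1.5-fold limit in SUDHL6. It had 9.22, 7.93 and 9.04 CPM in parental and 6.53, 5.42 and 5.58 CPM in resistant cells, from 203 to 368 counts per library. The fall was 1.49-fold (log2 fold change -0.58, SE 0.11, edgeR adjusted p = 0.000844). It was called without CE-8, at -0.64, and without CE-10, at -0.67, where 8.45% and 8.29% of all genes were called. IGHA1 and IGHA2 summed were called at -0.61 (edgeR adjusted p = 0.000218).

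The light chain members of SUDHL6 were all lower in resistant cells. IGKC, the kappa constant region, had 1357.5, 1347 and 1358 CPM in parental cells and 1159, 1136 and 1148 CPM in resistant cells, with a log2 fold change of -0.24 (SE 0.01, edgeR adjusted p = 3.00e-08). IGLC2 had 108, 107 and 107 CPM in parental cells against 88.7, 83.1 and 88.6 CPM, with a log2 fold change of -0.30. IGLC3, from 13.5 ± 0.459 to 10.6 ± 0.822 CPM (n = 3 per group), changed by -0.35. The lambda rows IGLC1 to IGLC7 summed, the pseudogene IGLC5 among them, had 166 CPM in parental and 131 CPM in resistant libraries. This is -0.34 on the log2 scale (edgeR adjusted p = 3.42e-07). In bulk RNA, fewer cells that express a gene and less RNA per cell cannot be told apart.

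**Figure D2:**
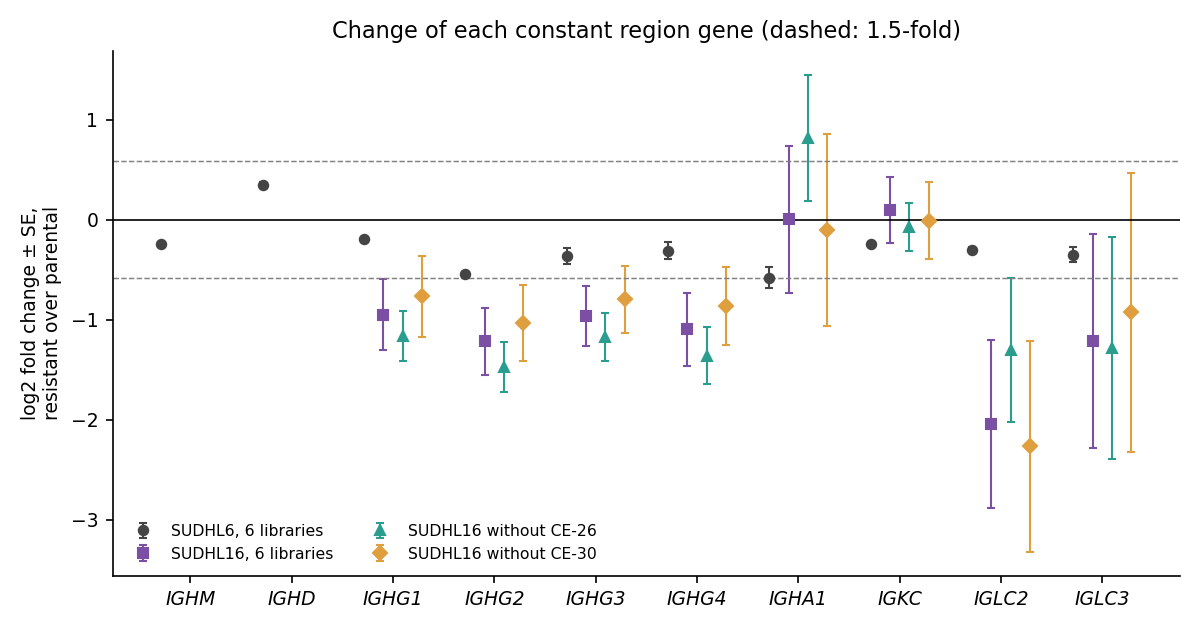
Log2 fold change of each constant region gene, resistant over parental, with its standard error, for SUDHL6 and for SUDHL16 with all 6 libraries, without CE-26 and without CE-30. The dashed lines mark a 1.5-fold change. SUDHL6 values lie between -0.58 and 0.35, and IGHG1 to IGHG4 in SUDHL16 lie between -1.47 and -0.77 in the 3 fits.

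The question for the shares was whether the class composition differed within SUDHL6. Each heavy gene was divided by the sum of the 9 annotated heavy constant genes and each light gene by the sum of the 5 annotated light constant genes. IGHM made up 80.4% ± 0.338 of heavy counts in parental and 79.7% ± 0.159 in resistant cells (SD, n = 3 per group). The share of IGHD was 2.04% ± 0.0458 and 3.06% ± 0.0739, a difference of 1.02 percentage points, and that of IGHG2 was 3.11% ± 0.0830 and 2.51% ± 0.0180. In each of these 3 genes the groups did not overlap, with a two-sided exact permutation p of 0.1, which is the smallest that 3 against 3 libraries can give. IGKC was 89.46% ± 0.107 and 90.01% ± 0.173 of light counts, also without overlap. The summed heavy genes went from 3880 ± 86.2 to 3301 ± 46.4 CPM and the summed light genes from 1514 ± 6.65 to 1275 ± 14.9 CPM. The number of heavy counts per light count was 2.56 ± 0.0472 in parental and 2.59 ± 0.0135 in resistant cells, and these ranges overlapped (exact permutation p = 0.6).

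In SUDHL16 the mu and delta genes were nearly absent from the libraries. IGHM had 0 counts in 5 of 6 libraries and 3 counts in CE-26, and IGHD had 0 in all 6. A count of 0 allows up to 3 counts, which is a share of 0.00975% to 0.0239% of the heavy counts, or 0.127 to 0.199 CPM, in the 5 libraries other than CE-26, and 0.111% or 1.03 CPM in CE-26. These limits cover counting error only. Both genes were below the filter on low counts, so 8 of the 10 members were tested.

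The same question, resistant against parental, was then asked in SUDHL16, where the 4 gamma genes had lower means in resistant cells and IGKC did not. IGHG1, the dominant heavy gene, had 1452, 806 and 1393 CPM in the parental libraries CE-25, CE-26 and CE-27, and 747, 681 and 465 CPM in the resistant libraries CE-28, CE-29 and CE-30. The groups did not overlap, and the lowest parental library was CE-26 and the lowest resistant library CE-30. The log2 fold change was -0.95 (SE 0.36), and the edgeR adjusted p of 0.189 did not pass. IGHG2 had 90.8, 44.4 and 94.8 CPM in parental and 37.8, 37.4 and 24.3 CPM in resistant cells, with a log2 fold change of -1.22 (edgeR adjusted p = 0.0798). IGHG3, with 66.5, 35.2 and 60.2 against 32.05, 30.3 and 21.2 CPM, changed by -0.96 (edgeR adjusted p = 0.119). IGHG4, with 71.8, 31.8 and 64.9 against 29.3, 32.9 and 17.2 CPM, changed by -1.10 (edgeR adjusted p = 0.143), and its groups overlapped. The 4 summed changed by -0.97 (edgeR adjusted p = 0.189). Of the 8 members tested, 0 were called by edgeR and 2 by DESeq2 (IGHG1 and IGHG2), and 5 had an unadjusted edgeR p under 0.05. The background was 5.30% of 15708 genes called by edgeR. For DESeq2 it was 5.03% of 41969 genes, to which the filter on low counts was not applied. Among the 15708 genes, 26.6% had groups that did not overlap (11.9% with the resistant libraries lower, as in IGHG1, IGHG2, IGHG3 and IGLC2). An unadjusted edgeR p under 0.05 was found for 19.1%. The median log2 fold change was -1.03 over the members tested and -0.02 over all genes tested.

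Without CE-26 the 4 gamma genes were called, and no other member. Their log2 fold changes were then -1.16 for IGHG1 (edgeR adjusted p = 0.0235), -1.47 for IGHG2 (0.00759), -1.18 for IGHG3 (0.0198) and -1.36 for IGHG4 (0.0219), where 10.0% of all genes were called and 3.32% in the lower direction. Without CE-30, 0 members were called against 1.96% of genes, 1 had an unadjusted p under 0.05 against 13.5% of genes, and the log2 fold change of IGHG1 was -0.77 (edgeR adjusted p = 0.501). Without both libraries the 4 gamma genes were called again, with IGHG1 at -0.996 (edgeR adjusted p = 0.0211) and a background of 10.2%. In this edgeR fit of the line alone the call of the gamma genes depended on whether CE-26 was kept, and their direction did not depend on either library. With CE-26 kept, all 4 were called by voom with sample quality weights (background 16.9%) and in the single fit of 12 libraries (background 14.6%). The call thus depended on the method too.

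The other SUDHL16 members had few counts or showed no shift. IGKC had 1118, 640 and 885 CPM in parental and 984, 760 and 1089 CPM in resistant cells, with overlapping groups and a log2 fold change of 0.10 (SE 0.33, edgeR adjusted p = 0.912). This sign turned to -0.07 without CE-26 and to -0.01 without CE-30. IGLC2 had 40, 16 and 20 counts in parental and 12, 8 and 21 counts in resistant libraries, a level of 2.96 ± 2.22 against 0.686 ± 0.274 CPM (SD, n = 3 per group), with a log2 fold change of -2.05 (edgeR adjusted p = 0.231) and of -1.30 without CE-26. IGLC3 had 1 to 15 counts per library, and IGHA1 had 14 to 64 counts, with 2.494 ± 1.999 CPM in parental against 2.37 ± 1.03 CPM in resistant cells. Summed over copies, the alpha genes were at -0.12 (edgeR adjusted p = 0.955) and the lambda rows IGLC1 to IGLC7 at -1.79 (edgeR adjusted p = 0.207).

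In SUDHL16 the class shares moved little, and the groups did not overlap in the balance of heavy to light counts. IGHG1 made up 86.5% ± 0.411 of heavy counts in parental and 87.5% ± 0.484 in resistant cells (SD, n = 3 per group), and these ranges overlapped. Without CE-26 they did not, at 86.3% and 87.5%. IGHG2 was 5.35% ± 0.537 and 4.60% ± 0.159 of heavy counts, without overlap, though CE-26 at 4.80% lay close to CE-29 at 4.77%. With pseudogenes in the denominator the groups overlapped for IGHG2 and did not for IGHG1. IGKC made up 99.4% ± 0.509 of light counts in parental and 99.9% ± 0.0450 in resistant cells. The number of heavy counts per light count was 1.501, 1.43 and 1.82 in the parental libraries and 0.862, 1.03 and 0.487 in the resistant libraries. The groups did not overlap, and the two-sided exact permutation p of 0.1 is the smallest the design allows. The parental mean was 1.66 without CE-26 and the resistant mean 0.946 without CE-30, in each case without overlap between the groups. The summed heavy genes had 1408 ± 419 CPM in parental cells against 721 ± 168 CPM in resistant ones, and the summed light genes 885 ± 237 and 945 ± 169 CPM.

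**Figure D3:**
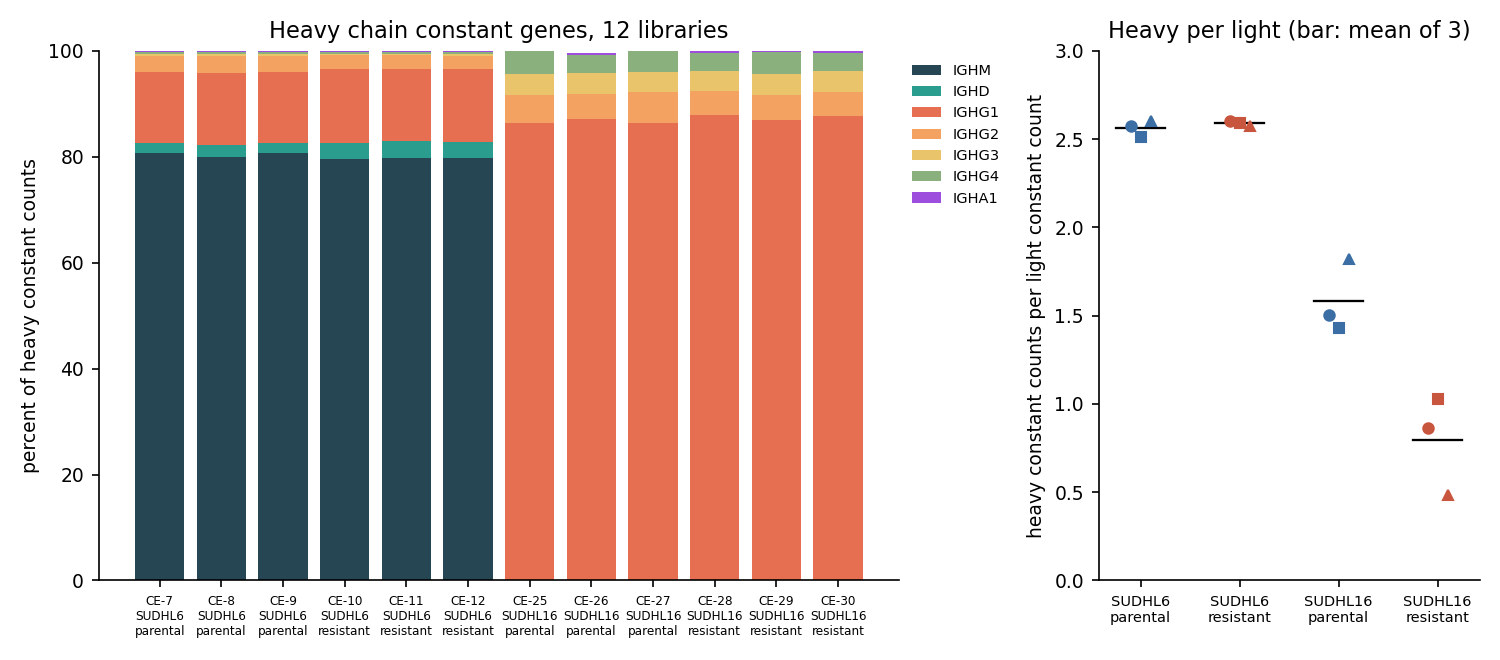
Left, percent of heavy constant counts on each heavy member in each of the 12 libraries. IGHM takes 79.5% to 80.6% in SUDHL6 and IGHG1 at least 86.3% in SUDHL16. Right, heavy constant counts per light constant count in each library, with the mean of 3 as a bar. The resistant SUDHL16 libraries lie between 0.487 and 1.03 and the parental between 1.43 and 1.82.

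The difference between the lines in the change with resistance was tested as an interaction in a fit of all 12 libraries, for the 8 members with counts in both lines. With all libraries 0 of the 8 passed in edgeR (1, IGLC2, at an unadjusted p under 0.05), where 7.16% of all genes did. The difference for IGHG1 was -0.75 on the log2 scale (SE 0.36, edgeR adjusted p = 0.261) and for IGKC 0.36 (SE 0.33, edgeR adjusted p = 0.603). Without CE-26 the 4 gamma genes passed, from -1.10 for IGHG4 to -0.86 for IGHG3 with edgeR adjusted p between 0.00804 and 0.0307, against 14.0% of all genes. Without CE-30, 0 passed and 1 had an unadjusted p under 0.05, against 5.96% of genes that passed.

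The other constant genes and copies were examined for reads that might belong with the members. In SUDHL6, IGHA2 had 40, 50 and 62 counts in parental and 29, 33 and 29 in resistant libraries and was called lower, at -0.84 (edgeR adjusted p = 0.00810). The lambda pseudogene IGLC5 was called lower too, at -0.79 (edgeR adjusted p = 0.000233). IGLC1 went from 38.3 to 29.5 CPM, which on the log2 scale is -0.37, below the 1.5-fold limit. The lambda gene IGLC7 had at most 31 counts in a library, as did IGLC4 and IGLC6, which are not among the annotated light constant genes. IGHE, the IgE constant gene, had at most 6. IGHGP had 126 to 147 counts in SUDHL6. In SUDHL16 it had 863, 91 and 1010 counts in the parental and 491, 449 and 366 in the resistant libraries, with 46.8 against 23.02 CPM and a log2 fold change of -1.04 (edgeR adjusted p = 0.153). The pseudogene IGHEP2 had 4 to 18 counts in SUDHL16.

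IGLL5, a lambda-like gene that overlaps the IGLC1 exon on the same strand, held more counts than any lambda constant gene in SUDHL6, with 25056 to 30623 in parental and 21340 to 24046 in resistant libraries. It fell by 0.35 on the log2 scale (edgeR adjusted p = 8.66e-09). With IGLL5 and the pseudogenes in the denominator, IGKC made up 59.7% ± 0.170 of light counts in parental and 61.5% ± 0.122 in resistant SUDHL6 (SD, n = 3 per group). In SUDHL16, IGLL5 had 584, 42 and 475 counts in parental and 98, 53 and 69 in resistant libraries. It was called lower there at -2.69 (edgeR adjusted p = 0.0192), and not without CE-30, where the adjusted p was 0.111.

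The leading variable segment of the heavy and of the kappa locus was the same in all 6 libraries of a line. In SUDHL6, IGHV3-48 held 270 to 315 of the 298 to 353 heavy variable counts and IGKV1-5 held 8738 to 12581 of the 9469 to 13378 kappa variable counts. IGHV3-49, next in rank, had 14 to 25 counts. Heavy variable counts were few in SUDHL6 beside the 119495 to 160780 heavy constant counts, so the values of IGHV3-48 rest on few reads. In SUDHL16, IGHV3-23 held 49 to 478 of 61 to 496 heavy variable counts, and IGKV4-1 held 355 to 5084 of the 418 to 7453 kappa variable counts. In CE-30 it held 4079 of 7453. IGKV1-5 went from 305 to 256 CPM in SUDHL6, with a log2 fold change of -0.25 (edgeR adjusted p = 0.000256), beside -0.24 for IGKC. IGHV3-48 was at 8.28 and 7.81 CPM, with a log2 fold change of -0.08 (edgeR adjusted p = 0.557), beside -0.25 for IGHM. In SUDHL16, IGHV3-23 was at 20.1 and 9.09 CPM, with a log2 fold change of -1.15 (edgeR adjusted p = 0.0776), beside -0.95 for IGHG1, and IGKV4-1 at 219 and 209 CPM, with a log2 fold change of -0.07, beside 0.10 for IGKC. The kappa segment IGKV1-12 had 616 to 751 counts in SUDHL6 and 25 to 395 in SUDHL16. Lambda variable counts were few, 125 to 185 in SUDHL6 and 5 to 213 in SUDHL16, led by IGLV6-57 and IGLV4-69 respectively.

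Genes that carry, process or secrete immunoglobulin were counted in 5 lists, as a description beside the members, where the background of called genes in either direction was 8.96% in SUDHL6 (4.65% in the lower direction) and 5.30% in SUDHL16. The first holds the partners of surface immunoglobulin and the surrogate light chain, 8 genes. In SUDHL6, 1 of the 6 tested was called, VPREB3, a member of the VpreB family, from 57.5 ± 1.20 to 35.5 ± 1.32 CPM (n = 3 per group). CD79A and CD79B, which carry the signal of surface immunoglobulin, fell by 0.12 and 0.40 on the log2 scale (edgeR adjusted p = 0.000339 and 3.58e-09), below the 1.5-fold limit. The coreceptor gene CD81 was at 0.04 and did not pass, and VPREB1 and IGLL1 had at most 17 counts. In SUDHL16, 2 of 6 were called, VPREB3 higher and IGLL5 lower. VPREB3 had 29.8, 32.1 and 33.5 CPM in parental and 113, 69.7 and 125 CPM in resistant cells, with a log2 fold change of 1.69 (edgeR adjusted p = 0.0106) that was not called without CE-30. CD79A was at 0.39 and CD79B at 0.36 (edgeR adjusted p = 0.560 and 0.654). The list's median log2 fold change was -0.23 in SUDHL6 and 0.38 in SUDHL16.

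The second list, of 8 genes of secretion and the J chain, moved differently in the lines. JCHAIN joins IgM and IgA into polymers. In SUDHL6 it had 467, 469 and 464 CPM in parental and 243, 246 and 246 CPM in resistant cells, a fall of 0.93 on the log2 scale (edgeR adjusted p = 3.60e-12). In SUDHL16 it had 10971, 825 and 6823 counts in parental and 0, 0 and 2 counts in resistant libraries, and it was called lower with all libraries (edgeR adjusted p = 0.000302), without CE-26 (5.04e-05) and without CE-30 (0.00473). XBP1, a transcription factor of the secretory programme, fell in SUDHL6 from 39.6 ± 1.55 to 20.4 ± 2.64 CPM (n = 3 per group). In SUDHL16 it rose, from 24.0, 16.8 and 8.07 CPM to 90.6, 76.1 and 104 CPM, by 2.47 on the log2 scale (edgeR adjusted p = 0.0102), and was not called without CE-30.

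PRDM1 (BLIMP1), a transcription factor of plasma cells, had 0, 2 and 0 counts in parental and 140, 269 and 254 counts in resistant SUDHL16 libraries and was called higher (edgeR adjusted p = 0.0169), though not without CE-30 (0.103). It had 3 to 18 counts in SUDHL6, below the filter. IRF4, a transcription factor that acts before it, was called lower in SUDHL6, from 366 ± 2.94 to 194 ± 1.59 CPM (n = 3 per group), and in SUDHL16 had 0, 9 and 2 against 40, 202 and 212 counts, which passed without CE-26 (edgeR adjusted p = 0.00536) and not with it (0.290). ELL2, an elongation factor linked to the secreted form of heavy chains, was at -0.03 in SUDHL6 and was called lower in SUDHL16, from 8.32 ± 1.64 to 1.46 ± 0.584 CPM (n = 3 per group). MZB1, a chaperone of secreted IgM, fell by 0.36 in SUDHL6 without reaching the 1.5-fold limit, and in SUDHL16 was at -0.68 (edgeR adjusted p = 0.200). In SUDHL16 MZB1 was called lower by DESeq2 (background 5.03%) and by voom with sample quality weights (background 16.9%). TNFRSF17 (BCMA) rose by 0.24 in SUDHL6 without reaching the limit and in SUDHL16 had 0 counts in each parental and 9, 15 and 24 in the resistant libraries. SDC1 had 71 to 114 counts in SUDHL6 and 0 in 5 of 6 SUDHL16 libraries. In all, 3 of 7 tested genes of this list were called in SUDHL6, each lower. In SUDHL16, 4 of 6 were called, 2 higher and 2 lower. Without CE-26, 6 of 7 were called there, 4 higher and 2 lower, with TNFRSF17 among the higher ones (background 10.0%). Without CE-30, 1 of 6 was called (background 1.96%). The summed level of the 5 plasma cell markers SDC1, PRDM1, XBP1, JCHAIN and TNFRSF17 was 559 to 564 CPM in parental and 328 to 333 CPM in resistant SUDHL6, and 302 to 624 against 89.3 to 116 CPM in SUDHL16. The lower sum in resistant SUDHL16 came mainly from JCHAIN, whose mean fell from 434 to 0.0281 CPM. SDC1, with 7 counts in CE-26 only, was lower too. The other markers rose in mean CPM, PRDM1 from 0.228 to 10.9, XBP1 from 16.3 to 90.1 and TNFRSF17 from 0 to 0.771. The part of the 5 plasma cell markers in the levels of the members was not tested.

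**Figure D4:**
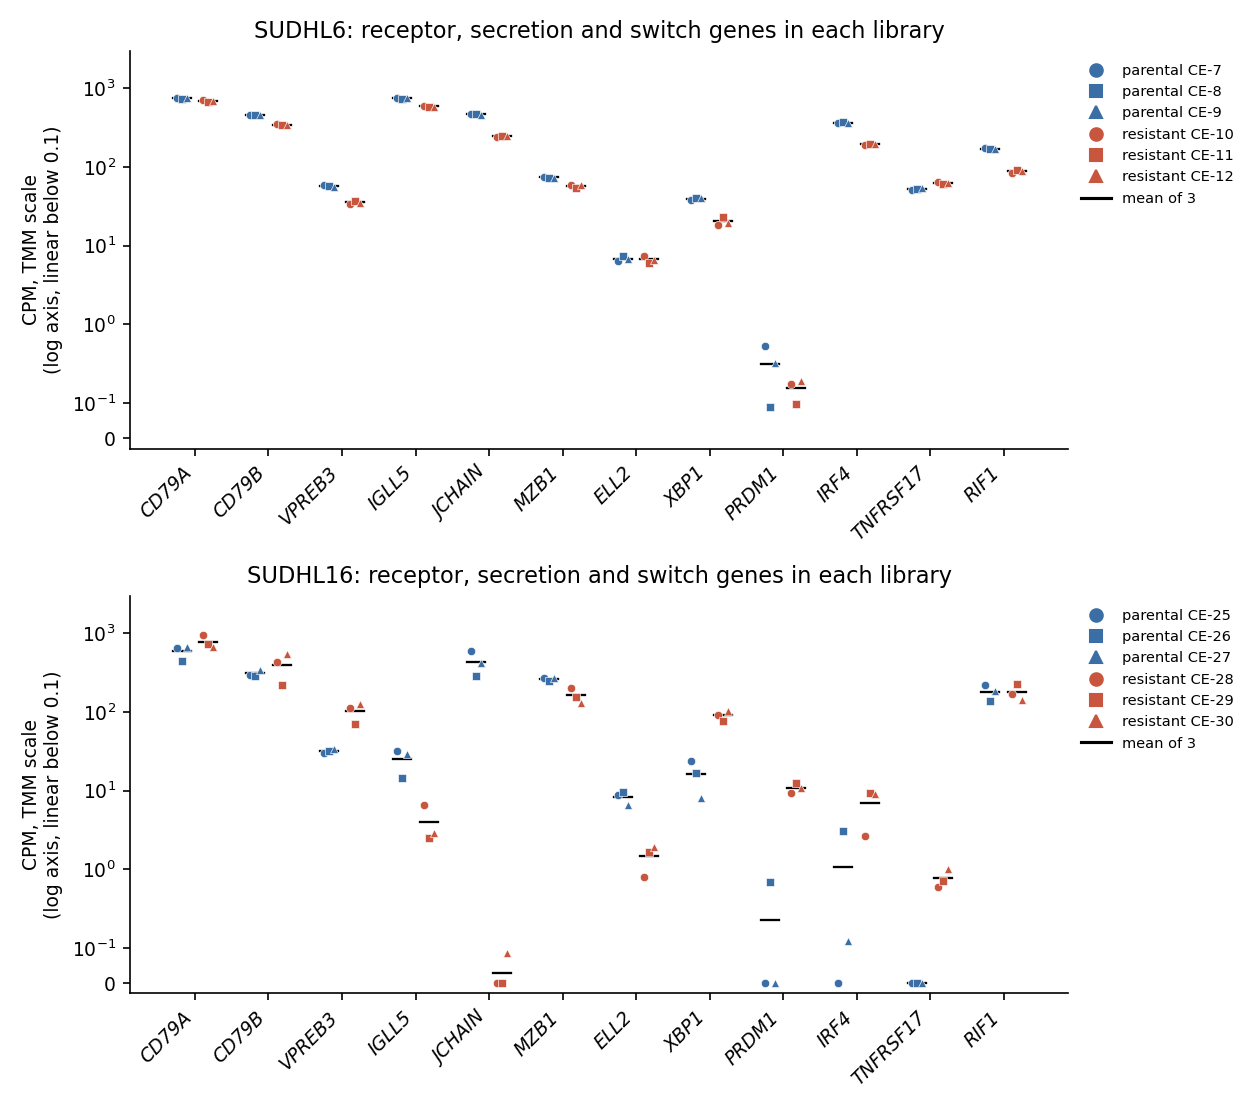
CPM of 12 genes of the immunoglobulin receptor, of secretion and of class switching in each of the 12 libraries, on a log axis that is linear below 0.1, with the mean of 3 as a black bar. JCHAIN was at 243 to 246 CPM in resistant SUDHL6 and at most 2 counts in resistant SUDHL16, while XBP1 and PRDM1 were higher in resistant than in parental SUDHL16.

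The third list holds 21 genes of class switching and somatic hypermutation. In SUDHL6, RIF1, a DNA end protection factor, was called lower and went from 171 ± 3.43 to 87.9 ± 3.90 CPM (n = 3 per group). In SUDHL16, 2 of 20 tested were called. They were the shieldin subunit MAD2L2 (REV7) at 1.12 and HMCES, which protects abasic sites, at -1.17 (edgeR adjusted p = 0.0360 and 0.0208). Without CE-30, 0 were called (background 1.96%), and 3 had an unadjusted edgeR p under 0.05, against 13.5% of all genes. The list's median log2 fold change was -0.06 in SUDHL6 and -0.21 in SUDHL16.

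Of 18 transcription factors of the immunoglobulin loci, 2 were called in SUDHL6, both lower. TCF4 (E2-2) fell by 2.01 on the log2 scale and BACH2, a repressor of PRDM1, by 0.68 (edgeR adjusted p = 4.23e-06 and 4.21e-09). In SUDHL16, 0 of 18 were called by edgeR, also without CE-26 and without CE-30. With all libraries 3 had an unadjusted edgeR p under 0.05, against 19.1% of all genes. DESeq2 called 3, IKZF1, IKZF3 and MEF2B (background 5.03%). Of 11 receptors of immunoglobulin, 4 were called in SUDHL6, each lower. They were FCMR, the IgM receptor, from 19.8 ± 1.26 to 6.90 ± 0.650 CPM (n = 3 per group), the IgE receptor FCER2 at -0.66, the polymeric receptor PIGR at -2.24 and the neonatal IgG receptor FCGRT at -2.50. In SUDHL16, 1 of 8 tested was called, the inhibitory IgG receptor FCGR2B. It had 39, 19 and 134 counts in parental and 2797, 4005 and 5775 in resistant libraries, with a log2 fold change of 5.22 (SE 0.52, edgeR adjusted p = 0.00114), and it was called without CE-26 and without CE-30. Without CE-26, 4 of 8 receptors were called, FCRL2 and FCGR2B higher and FCRL5 and FCGRT lower, where 10.0% of all genes were called. DESeq2 called 6 of 11 with all libraries (background 5.03%). FCGRT was at -1.92 in SUDHL16 with all libraries, without a call by edgeR. Over the 5 lists 12 genes were called in SUDHL6 and 9 in SUDHL16.

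The genes whose log2 CPM was most like that of IGHM over the 12 libraries, by Pearson's r among 10659 genes, were PSMB7, BAG1, ERV3-1, ACAT2 and SERINC5, with r from 0.995 to 0.997. For IGKC they were STK17A, AMZ2P1, U2AF1L4, VEGFB and CCT6P3, with r from 0.970 to 0.980 among 10658 genes. The 12 points share 2 lines with their kits, and IGHM was at or near 0 in SUDHL16, so for IGHM they form a cluster per line.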

How the data were processed

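RNA sequencing libraries of the parental and resistant lines, 3 per group, were used as the authors deposited them, as raw counts per Ensembl identifier that had not been normalised. Per the labels and the submitters' processing notes, reads were trimmed with Trim Galore and aligned with HISAT2 to GRCh38, and StringTie and edgeR are named too. The counting tool, its annotation and its use of strand are not given in the sources used here. Of the 60675 identifiers in each table, 56558 (93.2%) were matched to GENCODE release 44, which gave symbols and positions.

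Counts were analysed with edgeR 4.0.16 in R 4.3.3, line by line, with filterByExpr, TMM scaling and quasi-likelihood tests, which were two-sided. The calling threshold was an adjusted p (Benjamini-Hochberg) under 0.05 and at least 1.5-fold. The difference between the lines was a contrast in a single fit of all 12 libraries. Shares were compared by two-sided exact permutation tests. The scripts were tested on simulated data. Alternatives were DESeq2 1.42.0, voom with sample quality weights (limma 3.58.1), glmTreat, other scalings and filters, summed copies, other denominators and leaving out each library. Leaving out CE-26 and CE-30 together was chosen after seeing the data. Named were all members, other constant genes with 10 or more counts in a library, the 2 leading variable segments per group and locus, every gene of the first 2 lists, called genes of the other lists and the 5 genes most like IGHM and IGKC above a mean level of 5 CPM. Features named outside this rule (IGHE, IGHJ4, CD3D, CD3E, CD3G, CD2, TRAC, IKZF1, IKZF3, MEF2B, SHLD1, FCRL2, FCRL4, FCRL5) were chosen after their values were seen. Single values of some list genes are not reported here, though list counts and medians include them. The members, lists and tests were chosen with earlier results of these data known. Sequences were read from the GRCh38 genome and GENCODE 44 exons.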

Additional observations from a re-analysis of the deposited data

Results flagged for a closer look

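The change with resistance differed between the lines, by the interaction test of edgeR over 12 libraries at an adjusted p under 0.05, for 0 of the 8 members tested and for 16 of the 62 list genes tested (25.8%), where 7.16% of all genes passed. The lists were not chosen independently of these data. Each value is the log2 change in SUDHL16 minus that in SUDHL6. Among the partners of surface immunoglobulin it was 2.42 for VPREB3 (edgeR adjusted p = 0.000258) and -2.37 for IGLL5 (0.0139). Among the secretion genes it was -2.40 for ELL2 (edgeR adjusted p = 0.0072) and 3.45 for XBP1 (0.000629). It was -12.53 for JCHAIN, 8.22 for PRDM1, 5.26 for IRF4 and 7.01 for TNFRSF17 (edgeR adjusted p = 1.29e-06, 0.00535, 0.0126 and 0.000646). The size of these 4 values depends on the prior count, since a SUDHL16 group of each was at or near 0 counts. It was 1.28 for MAD2L2, -1.19 for HMCES, 2.43 for TCF4 and 5.66 for FCGR2B (edgeR adjusted p = 0.00314, 0.00221, 0.00587 and 0.000181). It was 1.34 for the shieldin subunit SHLD1, -1.18 for IKZF3, 2.76 for FCRL2 and -2.27 for FCRL4 (edgeR adjusted p = 0.0269, 0.0476, 0.0228 and 0.0377). FCRL4 had 7 to 25 counts in SUDHL6. Each of the 16 genes also passed without CE-26. Without CE-30, IKZF3 did not pass (edgeR adjusted p = 0.0659), and IGLL5 (0.0496) and FCRL4 (0.0499) were close to the threshold. The lines also differ in kit and sequencer, which cannot be told apart from the line.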

How the results depend on the processing

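No paired analysis was possible because the labels give no replicate numbers and the libraries were numbered in accession order only to name them. With 3 libraries per group no exact permutation test can reach 0.05, the low total of CE-26 limits its low values, and the spread between libraries was larger in SUDHL16 (common biological coefficient of variation 0.468) than in SUDHL6 (0.0516). Over SUDHL6 the log2 fold changes of the members were recomputed 143 times. Of these, 141 kept their direction and side of the calling threshold, and 2, both IGHA1, were newly called without CE-8 and without CE-10. Leaving out each SUDHL6 library in turn gave 0 to 1 members called, 9 to 10 members with an adjusted p under 0.05 and 12 to 13 list genes called, against 0, 10 and 12. With an adjusted p under 0.05 there were 0 members of SUDHL6 by glmTreat against 1.5-fold (background 3.53%), and 0 in a single fit of all 12 libraries (background 0.714%), where IGHD had an unadjusted p of 0.0308 and 2 list genes were called. That fit shares its estimate of the spread with SUDHL16.

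In SUDHL16, 121 values of the members gave 93 unchanged in direction and call, 19 newly called and 9 turned in sign. DESeq2 called 2 members (background 5.03% of 41969 genes, not filtered on low counts) and voom with sample quality weights 4 (16.9%). The single fit of 12 libraries called 5 (IGHG1 to IGHG4 and IGLC2, 14.6%). The fit without both CE-26 and CE-30, chosen after seeing the data, called 4. Counts at an adjusted p under 0.05 with no fold limit were 2, 5, 4 and 4 by DESeq2, the 12-library fit, voom and without both, against 5.08%, 15.2%, 16.9% and 10.2% of all genes. Leaving out each library gave 0 to 4 members and 2 to 14 list genes called, the highest of both without CE-26 and the lowest list count without CE-30, against 0 and 9. DESeq2 called 18 list genes, the 12-library fit 21 and voom 19. For the difference between the lines, leaving out a library gave 0 to 4 members. Values that turned in sign were those of IGHA1, 0.00 with all libraries, -0.13 with upper-quartile scaling and -0.35 to 0.82 without each library in turn (-0.23 without CE-25, -0.35 without CE-27, -0.26 without CE-28, -0.10 without CE-30), and of IGKC, 0.10 with all libraries, -0.073 by voom, -0.20 without both and -0.073 to 0.32 without each library in turn (-0.073 without CE-26, -0.011 without CE-30). None of these passed the test. Upper-quartile scaling moved the SUDHL16 median of all genes from -0.02 to -0.11, and scaling to totals to 0.12.

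The IGKC share differed by 0.547 percentage points between resistant and parental SUDHL6. This became 0.357 with the members alone as denominator and 1.78 with pseudogenes and IGLL5. In SUDHL16 the difference of 0.454 became 2.76 with pseudogenes and IGLL5, and lay between 0.160 and 0.602 without each library in turn, the lowest without CE-26.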
